A study of Triticum aestivum and Zea mays with 29 samples.

Results

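Adenine base editing by Cas12a fusions was measured in maize at 4 targets edited together, and the values form 1 of the 29 samples of a study on Cas12a base editors in wheat and maize. The members are all adenines listed for Zm-TS1, Zm-TS3, Zm-TS4 and Zm-TS8 in the maize adenine table, 12 adenines in all, each with 7 arms of 3 replicates, which gives 252 values in 21 columns. The study transfected protoplasts, which are leaf cells without walls, with plasmids for an editor and its crRNAs, sorted the cells that fluoresced green, and sequenced amplicons of the targets. A value is the percent of reads at an adenine that carry G.

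The cells were leaf mesophyll protoplasts of etiolated B104 seedlings, a maize line, and every arm shares this source, the sort and the 4 targets. The table numbers its arms 1 to 7. Its header names 4 editors, each driven by the maize ubiquitin promoter and each followed by a GFP that a P2A peptide splits off: TadA8e on LbCas12a(D832A), TadA8e on LbCas12a(D156R-D832A), TadA9 on LbCas12a(D156R-D832A), and TadA9 on the same Cas12a through a 6xGGGGS linker. The header also names 8 crRNA plasmids in 2 systems, one with a wheat U3 promoter, a tRNA and direct repeats, and one with a 35S promoter and a pair of self-cleaving ribozymes. Neither the table nor its sample label pairs an arm number with an editor, a crRNA system or a control, so arms are given by number only, and their order carries no meaning here. The study describes its replicates as independent and biological, while the sample label says nothing of separate cultures.

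Cas12a is a CRISPR nuclease that finds its target through a short crRNA and a T-rich PAM on the 5′ side of the spacer. The D832A change removes its ability to cut, and D156R makes LbCas12a more active at the lower temperatures of plant culture. TadA8e and TadA9 are evolved versions of the bacterial tRNA adenosine deaminase TadA: tethered to Cas12a, they turn adenines of the displaced DNA strand into inosine, which polymerases read as G. Deaminases of this kind act on adenines within a window of the spacer, so the position of an adenine and the crRNA both bear on how often it is converted.

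The targets belong to genes that shape ears, kernels, leaves and stature. fasciated ear3 encodes a leucine-rich repeat receptor that restrains growth of the inflorescence meristem, and small kernel 1 encodes a pentatricopeptide repeat protein needed for RNA editing in mitochondria. liguleless2 encodes a bZIP transcription factor needed for the ligule at the boundary of leaf blade and sheath, and dwarf4 is named after the Arabidopsis cytochrome P450 of brassinosteroid synthesis. The 4 sequences are shown because the listed adenines, whose levels the results compare, can be placed on them. Each line gives the PAM of 4 bases and then the spacer of 23 bases from the study's target list, 5′ to 3′, with the listed adenines in capitals. Positions count from 1 at the base next to the PAM.
Zm-TS1: tttaacacgggAAAttAcAgcaggaga
Zm-TS3: tttcggaaggcgcAgAtcgAgtccgcg
Zm-TS4: tttatcgtacgtAcgtAccatgcatgc
Zm-TS8: tttacatagcactAgcAcctgcttttg

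The study's target list assigns Zm-TS1 to fasciated ear3 (Zm00001d040130), Zm-TS3 to small kernel 1 (Zm00001d007100), Zm-TS4 to liguleless2 (Zm00001d042777) and Zm-TS8 to dwarf4 (Zm00001d028325). The spacers start at base 129, 95, 54 and 80 of their amplicons, in the order of the targets, and the amplicons are 232 to 235 bases long. Genome coordinates and exon annotation of the targets were not used here. The PAM is TTTC at Zm-TS3 and TTTA at the other targets. The spacers hold 25 adenines, of which the table lists 12, at positions 8 to 16. The listed adenines are A8, A9, A10, A13 and A15 of Zm-TS1, A10, A12 and A16 of Zm-TS3, A9 and A13 of Zm-TS4, and A10 and A13 of Zm-TS8. The base before the adenine is T at A9 and A13 of Zm-TS4, A13 of Zm-TS1 and A10 of Zm-TS8. It is A, C or G at the other 8, and the most edited adenine of a target follows G at Zm-TS1, C at Zm-TS3 and T at the other targets.

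Conversion differed between the arms far more than between replicates. Arms 4, 5 and 6 held the highest levels, arms 2 and 3 lay between, and the 36 values of arm 7 were 0 without exception. Averaged over the adenines of a target and then over targets, the columns of arm 1 stood at 0.0638, 0.05 and 0.0325%, those of arm 2 at 0.601, 0.577 and 0.685%, and those of arm 3 at 1.85, 2.67 and 2.31%. The columns of arm 4 stood at 4.68, 4.99 and 4.87%, those of arm 5 at 6.19, 4.6 and 4.63%, and those of arm 6 at 6.09, 5.71 and 6.2%. The 3 highest columns therefore came from arms 5 and 6, and the columns of arm 5 spanned those of arm 4 and reached those of arm 6.

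The arm means were 0.0487 ± 0.0157% for arm 1, 0.621 ± 0.0571% for arm 2 and 2.28 ± 0.412% for arm 3 (SD, n = 3). They were 4.85 ± 0.157% for arm 4, 5.14 ± 0.911% for arm 5 and 6 ± 0.257% for arm 6 (SD, n = 3). The arms differed by a permutation test of the Kruskal-Wallis statistic over the 21 columns (H = 18.9, p = 1e-05, the smallest that 100000 resamples can give). In 19 of the 21 pairs of arms, or 90.5%, the replicates did not overlap. These include all 11 pairs with arm 1 or arm 7, which were at or near 0, the lowest possible value. The overlapping pairs were arm 5 with arm 4, which differed by 0.294 percentage points, and arm 6 with arm 5, which differed by 0.858 percentage points. A single pair of arms could not pass a test, since 3 values against 3 cannot give an exact two-sided p below 0.1, and p was 0.1 for every pair without overlap.

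The number of adenines with a measurable level followed the level of the arms, and hardly differed among arms 4, 5 and 6. Arm 1 was above 0 at 1 adenine, A9 of Zm-TS4, where its replicates read 0.51, 0.4 and 0.26%. All 3 replicates were above 0 at 5 adenines in arm 2, at 7 in arm 3, at 10 in arms 4 and 5 and at 11 in arm 6. Of 84 combinations of arm and adenine, 44 were above 0 in all replicates, 32 were at 0 in all replicates and 8 were mixed. In the mixed ones no replicate exceeded 0.84%. The smallest value above 0 in the table was 0.2%, and the depth behind a value is unknown, so an adenine listed at 0 has no limit that can be stated and may hold a level under this size.

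**Figure D1:**
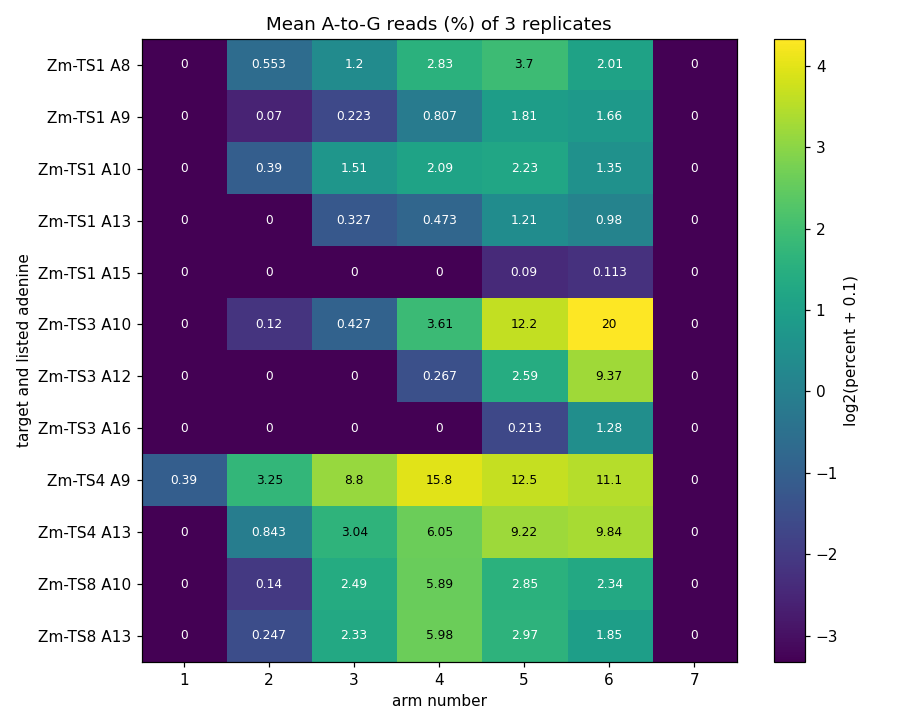
Mean percent of A-to-G reads over 3 replicates for each of the 12 listed adenines (vertical axis) and each arm (horizontal axis), printed in the cells; colour shows log2(percent + 0.1). Arms 4 to 6 hold the highest means, with the peak of 20% in arm 6 at A10 of Zm-TS3, and arm 7 is at 0 throughout.

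Relative to the mean, replicates agreed best where conversion was high. Among the 44 combinations above 0 in all replicates, the SD was 2.01 to 65.7% of the mean, with a median of 20%. The median was 12.8% for the 12 combinations with a mean of at least 5% and 29.6% for the 10 with a mean below 1%. The largest SD, 3.65 percentage points, belonged to arm 5 at A10 of Zm-TS3, where replicate 1 was higher than the other two. The replicate number itself made no detectable difference: over all arms, replicates 1, 2 and 3 averaged 2.78, 2.66 and 2.68%, and an exact permutation of the numbers within each arm gave p = 0.903. Differences between arms took up 82.6 to 98.2% of the sum of squares at 11 adenines, and 26.4% at A15 of Zm-TS1. These shares include arms 1 and 7, which were at or near 0.

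The arms differed at 11 of the 12 adenines, which is 91.7% (permutation of the Kruskal-Wallis statistic, Benjamini-Hochberg adjusted over the 12, p from 1.5e-05 to 0.000742). The exception was A15 of Zm-TS1, where 2 of 21 values were above 0, namely 0.27% in replicate 1 of arm 5 and 0.34% in replicate 1 of arm 6 (adjusted permutation p = 1). All 4 targets passed the same test (adjusted p from 1.33e-05 to 2e-05). Arm 7 was at 0 throughout and arm 1 everywhere but at A9 of Zm-TS4. These calls therefore say little about differences among the other arms. At A16 of Zm-TS3 the call rested on few values above 0: without replicate 1 or without replicate 2 its adjusted p was 0.0858 by the same permutation.

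At Zm-TS1 in fasciated ear3, arm 5 had the highest levels. At A8, the most edited adenine there, the replicates read 0.68, 0.48 and 0.5% in arm 2, 0.64, 1.8 and 1.17% in arm 3, and 3.45, 2.86 and 2.18% in arm 4. They read 4.55, 3.4 and 3.16% in arm 5 and 1.38, 1.99 and 2.67% in arm 6, while arms 1 and 7 were listed at 0. Neighbours in this order overlapped throughout the measured range: arm 5 with arm 4, arm 4 with arm 6, arm 6 with arm 3 and arm 3 with arm 2. Arm 5 (3.7 ± 0.743%) and arm 6 (2.01 ± 0.645%) did not overlap.

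The other adenines of Zm-TS1 were edited less. Their highest values were 2.38% at A9, 2.55% at A10, 1.57% at A13 and 0.34% at A15. Over the 21 columns A8 averaged 1.47%, A10 1.08%, A9 0.652%, A13 0.427% and A15 0.029%. A8 was above A9 in 15 columns and below it in none, and above A10 in 11 columns and below it in 4, the rest being equal at 0. A8 against A10 passed an exact sign-flip test over columns (difference 0.392 percentage points, adjusted p = 0.00908), but without arm 5 its adjusted p was 0.0727 by the same exact test. In arm 3 all 3 replicates were higher at A10 than at A8.

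Zm-TS3 in small kernel 1 gave both the highest value of the table and the steepest order of arms. At A10 the replicates read 19.8, 20.7 and 19.6% in arm 6, 16.4, 10.7 and 9.57% in arm 5, and 2.99, 4.04 and 3.8% in arm 4. In arm 3 they read 0, 0.44 and 0.84%, in arm 2 0, 0.36 and 0%, and arms 1 and 7 were listed at 0. Arm 6 lay above arm 5, arm 5 above arm 4 and arm 4 above arm 3, each with no overlap of replicates. The means were 20 ± 0.592% for arm 6, 12.2 ± 3.65% for arm 5 and 3.61 ± 0.55% for arm 4 (SD, n = 3).

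The adenines farther from the PAM at Zm-TS3 were measurable in fewer arms. A12 was above 0 only in arms 4, 5 and 6, where it read 0.21, 0.29 and 0.3%, 3.88, 2.81 and 1.09%, and 8.87, 10.3 and 8.91%. These 3 arms did not overlap at A12, in the same order as at A10. A16 read 0.92, 1.4 and 1.51% in arm 6 and 0.41, 0.23 and 0% in arm 5, and was listed at 0 elsewhere.

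**Figure D2:**
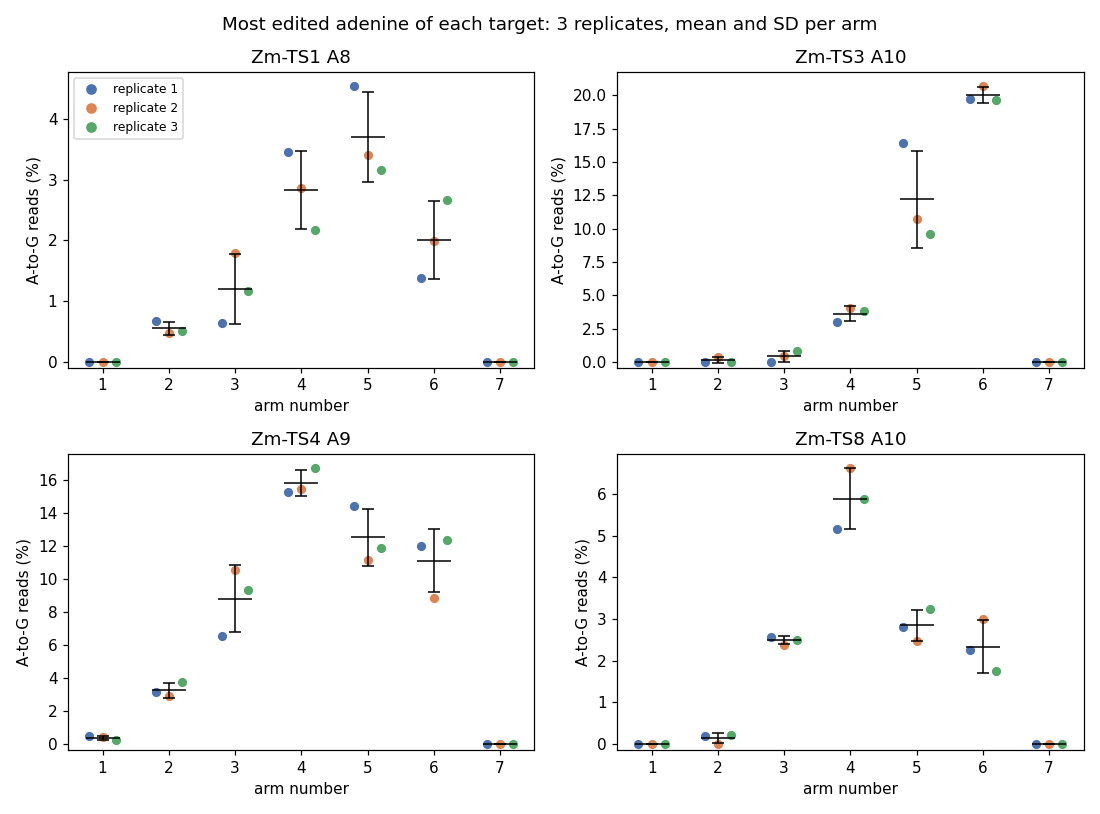
Percent of A-to-G reads at the most edited adenine of each target (vertical axes, each with its own scale) by arm (horizontal axes); points are replicates, bars the mean and SD of 3. The highest arm is arm 5 at A8 of Zm-TS1, arm 6 at A10 of Zm-TS3, and arm 4 at A9 of Zm-TS4 and at A10 of Zm-TS8.

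Zm-TS4 in liguleless2 had the highest mean conversion over all columns, and was the only target at which arm 1 was above 0. At A9 the replicates read 3.15, 2.88 and 3.73% in arm 2, 6.54, 10.5 and 9.32% in arm 3, and 15.2, 15.4 and 16.7% in arm 4. They read 14.4, 11.2 and 11.8% in arm 5 and 12, 8.85 and 12.3% in arm 6. Arm 4 (15.8 ± 0.796%) stood above arm 5 (12.5 ± 1.71%) and arm 6 (11.1 ± 1.92%) without overlap. Arm 6 overlapped arms 3 and 5, which did not overlap each other.

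A13 of the same target ordered the arms differently. There the replicates read 0.78, 0.95 and 0.8% in arm 2, 2.49, 3.81 and 2.82% in arm 3, and 6.13, 5.91 and 6.11% in arm 4. They read 11, 7.87 and 8.82% in arm 5 and 10.7, 8.34 and 10.5% in arm 6. Arms 5 and 6 now stood above arm 4 without overlap, although all 3 arms had been read from the same amplicons at A9, and arms 6 and 5 overlapped each other. Arm 6 minus arm 4 was −4.73 percentage points at A9 and 3.79 percentage points at A13.

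Zm-TS8 in dwarf4 had a single leading arm. At A10 the replicates read 5.16, 6.63 and 5.88% in arm 4, 2.82, 2.48 and 3.24% in arm 5, 2.57, 2.38 and 2.51% in arm 3, and 2.26, 3.01 and 1.75% in arm 6. In arm 2 they read 0.2, 0 and 0.22%, and arms 1 and 7 were listed at 0. Arm 4 (5.89 ± 0.735%) lay above every other arm without overlap, and arms 3, 5 and 6 overlapped. A13 gave the same leading arm, at 5.98 ± 0.621%, with 1.85 ± 0.404% in arm 6 and 2.97 ± 0.25% in arm 5, which did not overlap.

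The rank of an arm thus depended on the target. In the mean over adenines of a target, arm 5 came first at Zm-TS1, arm 6 at Zm-TS3 and arm 4 at Zm-TS4 and Zm-TS8. At Zm-TS1 the columns of arm 5, from 1.54 to 2.17%, overlapped those of arm 6, from 0.906 to 1.59%. By adenine, arm 6 had the highest mean at 5 of the 12, arm 5 at 4 and arm 4 at 3. The first arm stood apart from the second without overlap at 6 adenines, 3 led by arm 6 and 3 by arm 4, and overlapped it at the other 6, which include all 4 led by arm 5. Arms 4, 5 and 6 held the first 3 ranks at 7 of the 12 adenines. Of the other 5, A15 of Zm-TS1 and A16 of Zm-TS3 had values above 0 in arms 5 and 6 alone, and at the remaining 3 the mean of arm 3 was above that of arm 6. At Zm-TS4 the first ranks meant little, since arms 4, 5 and 6 averaged 10.9 ± 0.42%, 10.8 ± 1.65% and 10.5 ± 1.61% over its 2 adenines. At Zm-TS3 the same arms averaged 1.29 ± 0.199%, 5.01 ± 1.71% and 10.2 ± 0.516%, so that arm 4 reached 12.6% of the level of arm 6.

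Of the 21 pairs of arms, 16 had the same arm higher in the mean at all 4 targets. Arm 1 or arm 7 was part of 11 pairs, and since these arms were at or near 0 and no value can be lower, the direction of those pairs was largely fixed. Of the 7 pairs that set arm 2 or arm 3 against each other or against arms 4, 5 and 6, 6 had the same arm higher at all 4 targets. The 5 of 21 pairs without a shared direction were arm 1 with arm 7, which were equal at 0 at 3 targets, arm 6 with arm 3, and the 3 pairs among arms 4, 5 and 6. Arm 6 was higher than arm 3 at 3 targets and lower at Zm-TS8, where their target means of 2.09 ± 0.298% and 2.41 ± 0.169% overlapped. Over single adenines, the replicates of a pair of arms did not overlap in 167 of 252 comparisons, or 66.3%.

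Among arms 4, 5 and 6, adenines moved in both directions. Arm 5 was above arm 4 without overlap at 4 adenines and below it at 3. Arm 6 was above arm 4 at 5 adenines and below it at 4, and above arm 5 at 3 and below it at 3. In all, 22 of these 36 comparisons, or 61.1%, were without overlap, against 66.3% over all pairs of arms. In each of the 7 pairs of arm 2 or arm 3 named above, the comparisons without overlap had the same arm higher.

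**Figure D3:**
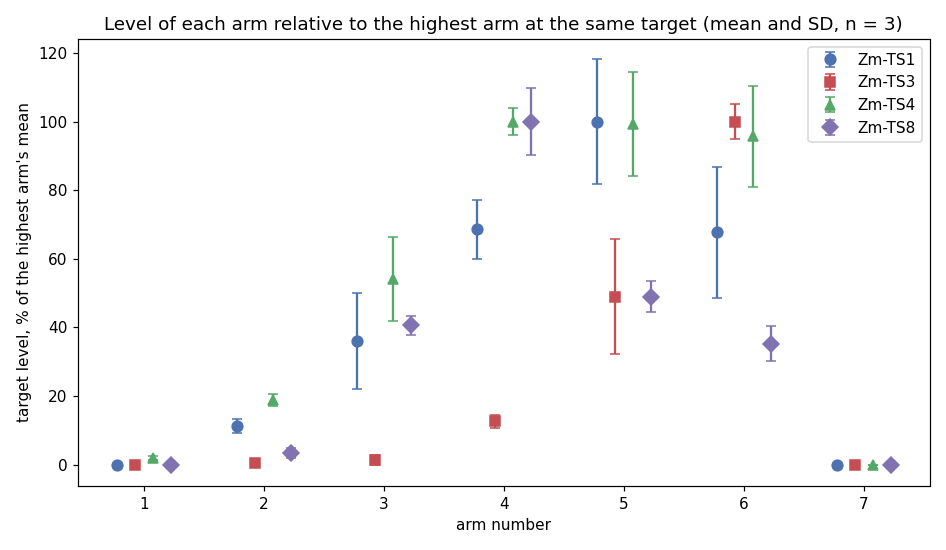
Mean over the listed adenines of each target, as a percentage of the mean of the highest arm at that target (vertical axis), by arm (horizontal axis); bars are the SD of 3 replicates on the same scale. Arm 4 stands at 100% at Zm-TS4 and Zm-TS8 and at 12.6% at Zm-TS3, where arm 6 is highest.

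The way in which conversion was shared among the targets shifted with the arm. Zm-TS4 held 82.5 ± 0.683% of the summed target means in arm 2, 64.5 ± 3.18% in arm 3, 56.4 ± 2.62% in arm 4, 52.9 ± 2.51% in arm 5 and 43.4 ± 5.01% in arm 6. Zm-TS3 held 1.73 ± 3%, 1.46 ± 1.51%, 6.65 ± 0.83%, 24 ± 4.39% and 42.7 ± 4% in the same arms (SD, n = 3). Zm-TS8 had its largest share in arm 4, at 30.6 ± 2.22%, against 14.4 ± 2.27% in arm 5 and 8.76 ± 1.5% in arm 6. Shares sum to the whole within a column, so a rise of one goes with a fall of others, and they are given with no test. In arms of low level they also depend on values listed at 0, since no value between 0 and 0.2% appears. Arm 1 had its whole share at Zm-TS4, and Zm-TS3 was above 0 in 1 column of arm 2 and 2 columns of arm 3.

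Over all 21 columns Zm-TS4 had the highest target mean, 5.77%, followed by Zm-TS3 with 2.39%, Zm-TS8 with 1.93% and Zm-TS1 with 0.732%. The medians ran otherwise, at 6.07% for Zm-TS4, 2.21% for Zm-TS8, 0.694% for Zm-TS1 and 0.147% for Zm-TS3, whose mean was carried by arms 5 and 6. These target levels average over 5 listed adenines at Zm-TS1, 3 at Zm-TS3 and 2 at the other targets, so weakly edited adenines lower some more than others. At the most edited adenine alone the means were 7.39% at Zm-TS4, 5.2% at Zm-TS3, 1.96% at Zm-TS8 and 1.47% at Zm-TS1. By exact sign-flip tests over columns, Zm-TS4 was above Zm-TS1 and Zm-TS8 in all 18 columns with a level at either (differences of 5.04 and 3.83 percentage points, adjusted p = 2.29e-05 for both). Zm-TS4 was above Zm-TS3 in 17 columns and below it in 1 (3.38 percentage points, adjusted p = 0.000458 by the same exact test). Zm-TS8 was above Zm-TS1 in 13 columns and below it in 2 (1.2 percentage points, adjusted p = 0.000458, exact). Zm-TS3 and Zm-TS8 did not pass (0.452 percentage points, adjusted p = 0.599, exact), with Zm-TS3 higher in 7 columns and lower in 8. On the log2(percent + 0.1) scale their difference turned to -1.12 (adjusted p = 0.0179, exact). When a target was represented by its most edited adenine alone, Zm-TS8 against Zm-TS1 and Zm-TS4 against Zm-TS3 no longer passed (adjusted p = 0.141 for both, exact).

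Zm-TS3 and Zm-TS1 passed with an adjusted p of 0.0368 in the exact test, but in 8 columns against 7. Without arm 6 their adjusted p was 0.246 and without arm 5 it was 0.288. These tests take columns as units, and columns of 1 arm share its plasmids. With the 7 arm means as units no pair of targets passed after adjustment (lowest adjusted p 0.0625 by the exact test, and 3 of 6 pairs under 0.05 before adjustment). None could have passed: arm 7 was at 0 everywhere and arm 1 at all targets but Zm-TS4, which leaves too few arms with a difference. No conclusion about the targets is drawn from this setting.

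Within targets, 14 of the 15 pairs of adenines, or 93.3%, differed over columns by the exact sign-flip test after adjustment. Here too the columns of an arm share its plasmids and are not independent units. The adenine of the pair with the higher mean lay closer to the PAM in 13 of the 14, the exception being A10 over A9 at Zm-TS1. Most of the 14 pairs are at Zm-TS1 and share its adenines, and adenines before position 8 are not listed. At Zm-TS4, A9 was above A13 in all 18 columns with a level (difference 3.25 percentage points, adjusted p = 0.000114, exact). At Zm-TS3, A10 was above A12 in all 12 such columns (3.45 percentage points, adjusted p = 0.000814, exact). At Zm-TS8, A10 and A13 did not pass (0.0462 percentage points, adjusted p = 0.68, exact), with A10 higher in 6 columns and A13 higher in 7. With arm means as units none of the 15 pairs passed after adjustment, and 1 was under 0.05 before it (lowest adjusted p 0.104 by the exact test). None could have passed, since arms at 0 at both adenines of a pair add nothing to this test. Only A9 against A13 of Zm-TS4 had enough arms above 0 to fall under 0.05 before adjustment.

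How far an adenine lagged behind its neighbour differed between arms, and these ratios are descriptions, chosen after the values were seen and computed only where both adenines were above 0 in all replicates. At Zm-TS4, A13 as a percentage of A9 was 24.8, 33 and 21.4% in arm 2, 38.1, 36.2 and 30.3% in arm 3 and 40.3, 38.3 and 36.6% in arm 4. It was 76.2, 70.6 and 74.5% in arm 5 and 88.8, 94.2 and 85.3% in arm 6. Arms 5 and 6 stood apart from arms 2 to 4 and from each other. At Zm-TS3, A12 as a percentage of A10 was 7.02, 7.18 and 7.89% in arm 4, 23.7, 26.3 and 11.4% in arm 5 and 44.9, 49.9 and 45.4% in arm 6, again without overlap.

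At Zm-TS1, A9 as a percentage of A8 was 30.1, 31.5 and 22% in arm 4, 42.4, 50.3 and 56.3% in arm 5 and 76.8, 77.4 and 89.1% in arm 6. The ratio was again lowest in arm 4 and highest in arm 6, with no overlap. Zm-TS8 gave no such order, with A13 over A10 averaging 102 ± 13.2% in arm 4, 105 ± 12.3% in arm 5 and 83.7 ± 29.4% in arm 6, all overlapping. Of the 9 pairs of adenines with a ratio in arms 4, 5 and 6, 4 ran from arm 4 through arm 5 to arm 6 without overlap of replicates. These were A9 over A8 and A9 over A10 at Zm-TS1, which share an adenine, A12 over A10 at Zm-TS3 and A13 over A9 at Zm-TS4. By mean, 6 of the 9 ran in this order. A13 over A9 at Zm-TS1 ran the other way, with means of 78.2, 66.6 and 62.4% and overlapping replicates, and A10 over A8 there had no such order.

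**Figure D4:**
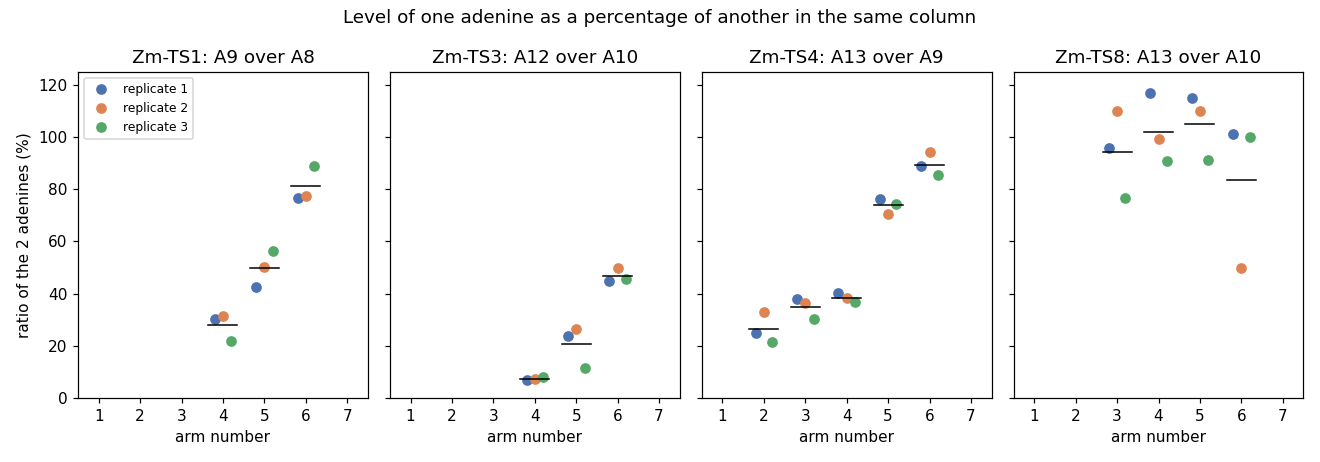
Level of one adenine as a percentage of another in the same column (vertical axis) by arm (horizontal axes), for a pair of adenines at each target; points are replicates, lines their means, and arms with a 0 among the values are left out. For the pair shown, the ratio increases over arms 4, 5 and 6 at Zm-TS1, Zm-TS3 and Zm-TS4, with means of 38.4, 73.8 and 89.4% at Zm-TS4, and overlaps at Zm-TS8. Other pairs at Zm-TS1 did not all increase.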

How the data were processed

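Sorted maize protoplasts were used directly as PCR template, and indexed amplicons were sequenced as read pairs. The authors split the reads by index, dropped pairs of low base quality, ran CRISPResso2 on each amplicon and deposited the percent of reads with A-to-G at each listed adenine. Read counts behind the percent values were not used here, so no counting interval is given, and PCR copies are not independent molecules. The deposited percent values were taken as they stand, with no filter, and no column of the table was left out. Arms and replicates were read from the column names.

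Arms were compared by permuting the Kruskal-Wallis statistic over columns (100000 resamples), pairs of arms by exact two-sided permutation, and pairs of targets or of adenines by exact two-sided sign flips over columns, all at 0.05 after Benjamini-Hochberg adjustment within each family. The tests were tried first on simulated normal values. These held no excess of values at 0 and, for the sign flips, no grouping of columns by arm. Every adenine and arm was described, and the adenine with the highest mean at each target was given in full. A13 of Zm-TS4, A12 of Zm-TS3 and the ratios were added after their values were seen. The members and lists were chosen with earlier results of these data known. Analyses used Python 3.11.15, NumPy 2.4.6, SciPy 1.17.1 and Matplotlib 3.10.9.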

Additional observations from a re-analysis of the deposited data

Results flagged for a closer look

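Arms 4, 5 and 6 took opposite orders at different targets, with no overlap of replicates on either side. In the mean over the adenines of a target, arm 6 minus arm 4 was 8.93 percentage points at Zm-TS3 and -3.84 percentage points at Zm-TS8. Arm 5 minus arm 4 was 3.71 percentage points at Zm-TS3, 0.567 at Zm-TS1 and -3.02 at Zm-TS8. Arm 6 minus arm 5 was 5.22 percentage points at Zm-TS3 and -0.817 at Zm-TS8.

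These reversals were picked from all 21 pairs of arms after the values were seen. The difference between targets could not reach significance, since an exact two-sided permutation of 3 columns against 3 gave p = 0.1 for each, the smallest possible. Which editor or crRNA system each arm carries is not known here, so no component can be set beside these orders.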

How the results depend on the processing

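The difference between arms passed under every alternative run, with p from 1e-05 to 0.00118 by permutation, the highest being without replicate 3. These alternatives were the most edited adenine of each target, every adenine counted once, log2(percent + 0.1), values at 0 set to 0.1%, all points pooled, the replicate block, each replicate or target left out, and, chosen after seeing the data, arm 7 left out. With the replicate number as a block the permutation p was 1e-05, all 4 targets and 11 of 12 adenines again passed, and no call changed. No pairing of the samples by number was seen. The deviations of same-numbered replicates correlated above 0.1 in 6 of 15 pairs of arms with a level, with r from -0.57 to 0.381. With 3 replicates per arm, and adenines of a column not independent, these values cannot settle whether the numbers pair the samples. Leaving out 1 replicate left 10 or 11 adenines, 19 to 21 pairs of arms without overlap, 4 pairs of targets and 11 to 13 pairs of adenines past the threshold. The replicate number gave p = 0.956 on the log2 scale and 0.953 with the most edited adenines, both by exact permutation.

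Pairs of targets depended most on the settings. With the most edited adenine of each target 3 of 6 pairs passed instead of 5, with Zm-TS8 against Zm-TS1 and Zm-TS4 against Zm-TS3 at an adjusted p of 0.141 in the exact test. On the log2 scale Zm-TS3 minus Zm-TS8 changed its sign, to -1.12 (adjusted p = 0.0179, exact), and Zm-TS3 against Zm-TS1 had an adjusted p of 0.841, as well as 0.122 to 0.145 without any 1 replicate in the same exact test on percents. Leaving out each arm in turn, also chosen after seeing the data, left 4 or 5 pairs of targets and 12 to 14 pairs of adenines. With arm means as units, chosen after seeing the data, 0 pairs of targets and 0 pairs of adenines passed after adjustment. None could have passed, with only 7 units and some of these arms at 0 at both members of a pair. A9 against A13 of Zm-TS1, called at an adjusted p of 0.0314, was lost on the log2 scale (0.357), without any 1 replicate (0.0879 to 0.1) and without arm 4, 5 or 6 (0.0586 to 0.142), all by exact sign flips. Without replicate 1, A8 against A10 and A10 against A9 of Zm-TS1 were also lost (0.0518 for both, exact). The causes were not tested.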
